A study of Mus musculus with 214 samples.

Results

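Red blood cell and neutrophil precursor genes were followed in mouse liver, from the pup to the adult, after N-nitrosodimethylamine (NDMA) or saline. The 10 genes, of 19900 in the deposited tables, were chosen by name: the globins Hba-a1, Hba-a2, Hbb-bs and Hbb-bt, the red cell genes Alas2 and Slc4a1, and the neutrophil genes S100a8, S100a9, Ngp and Camp. All mice were C57BL/6 and carried RaDR+/+;GPT+/+, a pair of reporter alleles for recombination and mutation. Those called WT had Mgmt intact and those called Mgmt-/- lacked the O6-methylguanine repair protein throughout the body, in males and females of both genotypes. NDMA, an alkylating liver carcinogen, was injected into the peritoneum at 3.5 mg/kg on postnatal day 8 and at 7 mg/kg on postnatal day 15, and control mice received saline. The authors describe the controls as sibling littermates, and also state that litters were assigned to saline or NDMA at birth. The second dose was followed by liver collection at 1, 2 and 5 days (Day 1, Day 2, Day 5), at 10 weeks (Week 10) and at 10 months (Month 10). The WT groups held 26, 8, 8, 8 and 13 NDMA mice and 21, 8, 7, 8 and 10 saline mice, and the Mgmt-/- groups 12, 8, 8, 8 and 13 NDMA mice and 12, 7, 8, 8 and 12 saline mice, in that order of time, with 1 library for each mouse. Transcripts were counted at their 3′ ends, and a value is a normalized read count, the reads of a gene divided by the size factor of its library.

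In the embryo the liver is the main blood-forming organ, and islands of red cell and granulocyte precursors persist in it for a while after birth before marrow and spleen take over. Red cell precursors make globin messenger RNA, haem and the anion exchanger of the membrane, and part of the globin message stays in young circulating red cells. Neutrophil precursors fill their secondary granules with proteins such as Ngp and Camp at the myelocyte stage and stop transcribing them as they mature, whereas S100a8 and S100a9 remain abundant in mature neutrophils. Whole liver therefore holds these messages from resident precursors and from blood in the vessels, and in bulk tissue fewer cells of a type and less RNA per cell cannot be told apart.

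The alpha-globin genes lie close together on chromosome 11 (GRCm38, plus strand), Hba-a1 at chr11:32283511-32284465 and Hba-a2 at chr11:32296489-32297298. Their promoter windows shared a run of 297 bases and their transcripts one of 415 bases, and their values were identical in 96 of 96 Mgmt-/- libraries and in 116 of 117 WT libraries, so Hba-a1 stands for both below and the 10 genes are counted as 9. The beta-globin genes Hbb-bs and Hbb-bt lie at chr7:103826534-103828096 and chr7:103812524-103813996 on the minus strand, share a transcript run of 430 bases, and had clearly different values. Alas2, the red cell form of the enzyme that starts haem synthesis, lies at chrX:150547375-150570638, and Slc4a1, the band 3 anion exchanger, at chr11:102348824-102366203. S100a8 and S100a9, which encode the subunits of calprotectin, lie close together at chr3:90668978-90670035 and chr3:90692632-90695721. Ngp, the neutrophilic granule protein, and Camp, the cathelicidin antimicrobial peptide, lie at chr9:110419747-110423012 and chr9:109847379-109849617.

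Promoter windows are shown for the members on which the results turn, each 250 bases before to 50 bases after the RefSeq start in GRCm38.p6, with capitals marking matches to 4 short motifs searched on both strands.
Hba-a1 chr11:32283422-32283721, plus strand: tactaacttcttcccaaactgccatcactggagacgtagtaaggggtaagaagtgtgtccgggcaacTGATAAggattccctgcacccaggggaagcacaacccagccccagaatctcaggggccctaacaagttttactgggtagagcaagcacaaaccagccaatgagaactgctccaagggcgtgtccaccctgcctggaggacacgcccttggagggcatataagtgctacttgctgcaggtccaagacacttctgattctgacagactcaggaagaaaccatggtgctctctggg
Hbb-bs chr7:103827879-103828178, minus strand: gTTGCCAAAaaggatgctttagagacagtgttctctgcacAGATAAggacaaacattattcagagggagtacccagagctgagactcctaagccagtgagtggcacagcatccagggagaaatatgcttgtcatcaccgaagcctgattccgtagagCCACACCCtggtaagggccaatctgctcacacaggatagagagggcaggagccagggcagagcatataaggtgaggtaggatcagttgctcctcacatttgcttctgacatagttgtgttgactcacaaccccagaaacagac
Alas2 chrX:150547167-150547466, plus strand: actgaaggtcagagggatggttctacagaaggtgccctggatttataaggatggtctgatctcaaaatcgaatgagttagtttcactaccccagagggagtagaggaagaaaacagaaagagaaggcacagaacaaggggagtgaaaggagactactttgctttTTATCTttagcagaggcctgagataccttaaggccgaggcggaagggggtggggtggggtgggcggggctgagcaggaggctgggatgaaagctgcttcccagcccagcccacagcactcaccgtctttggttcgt
Ngp chr9:110419558-110419857, plus strand: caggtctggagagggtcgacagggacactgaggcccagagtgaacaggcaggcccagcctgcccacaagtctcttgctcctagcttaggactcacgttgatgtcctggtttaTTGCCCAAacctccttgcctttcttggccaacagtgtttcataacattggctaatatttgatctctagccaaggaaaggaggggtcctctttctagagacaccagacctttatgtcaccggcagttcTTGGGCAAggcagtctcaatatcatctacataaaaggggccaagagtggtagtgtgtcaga
Camp chr9:109849407-109849706, minus strand: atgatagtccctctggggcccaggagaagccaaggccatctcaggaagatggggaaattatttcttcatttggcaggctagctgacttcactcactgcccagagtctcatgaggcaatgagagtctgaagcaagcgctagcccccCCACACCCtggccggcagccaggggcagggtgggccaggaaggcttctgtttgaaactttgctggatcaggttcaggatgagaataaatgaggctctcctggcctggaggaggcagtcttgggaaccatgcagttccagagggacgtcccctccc
The GATA motif, AGATAA or TGATAA, is named for the family of Gata1, which drives red cell genes. It occurred in 4 of 8 member windows (Hba-a1, Hbb-bs, Alas2 and S100a9), that of Hba-a2 not being counted again, and in 18.6% of all 32851 windows. The CACC motif, CACACCC or CCACACC, 2 spellings that overlap within CCACACCC and are bound by Klf1-type factors, occurred in Hbb-bs and Camp and in 11.8% of windows. The C/EBP motif TTGCNNAA, bound by factors of granulocyte development, occurred in Hbb-bs, S100a9 and Ngp, with 2 matches in Ngp, and in 10.8% of windows. The PU.1 motif GAGGAAGT occurred in S100a8 and in 3.20% of windows. A match is a run of letters and was not tested for binding, and the window of Slc4a1 was not analysed here.

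The depth and the tissue of the libraries were checked first. WT libraries held 150038 to 4791649 reads (median 1700411) and Mgmt-/- libraries 713584 to 7740710 (median 2306713). Below 300000 reads lay 4 WT libraries, all from NDMA females and 1 each at Day 2, Day 5, Week 10 and Month 10. The mean of 5 hepatocyte markers, among them albumin, was between 15870 and 85440 in every liver library, and that of 5 kidney tubule markers at most 4.30. The exceptions were 2 Mgmt-/- saline libraries at Day 5, whose kidney marker means were 4432 and 4983 and whose hepatocyte means were 319 and 470. They were left out of the comparisons, which leaves 6 saline mice in that group, and are described at the end. In 2 further libraries, both WT NDMA at Day 1, Xist and Y-linked genes went against the labelled sex, and without them no member was called in that comparison either. Each genotype was normalized in a table of its own, so levels are not on 1 scale between WT and Mgmt-/-.

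Most tested members were lower in adult than in pup livers of saline mice. In Mgmt-/- saline mice all 8 members that could be tested were lower at Month 10 than at Day 1 (7 after scaling every library to 1 total), where 24.5% of all 9885 genes tested were called lower and 26.6% higher, and in WT saline mice 7 of 8 were, where 21.1% of 9050 genes were called lower and 27.7% higher. No member was higher. Ngp and Camp passed the filter on low values only through the pups, so their calls are no separate support, and of the other 6 members 6 were lower in Mgmt-/- and 5 in WT mice. A gene was called when limma gave a Benjamini-Hochberg adjusted p under 0.05 over all genes tested and a log2 fold change beyond 0.58 in size, both on log2(normalized count + 1), a scale that understates changes of low genes. Ngp and Camp fell 25-fold to 85.3-fold in the fits, globins 3.54-fold to 18.5-fold, and Alas2 moved least. Slc4a1 had means under 5 over the saline libraries and was not tested, though its Mgmt-/- median went from 5.64 at Day 1 to 0 at Month 10. Those 6 members had a median log2 change of -4.15 in Mgmt-/- and -2.51 in WT mice, beside 0.12 and 0.27 over all genes.

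Globins were the most abundant members and stayed detectable at every age. Hba-a1 was between 1676 and 9695 in the 12 Mgmt-/- saline livers at Day 1 (median 5608), between 305 and 2579 at Week 10 (median 1362) and between 224 and 775 at Month 10 (median 562). Every Month 10 value was thus below every Day 1 value, as for 6.51% of all genes tested. The fall was 13-fold (log2 change -3.70 ± 0.427, SE, limma adjusted p = 3.49e-09). This fitted fall and those of the other globins rest on the Day 1 livers in the batch of the adults. Hbb-bs went from a median of 25920 (11510 to 39020) at Day 1 to 4753 (1186 to 8362) at Week 10 and 1617 (564 to 3951) at Month 10, a fall of 17.2-fold (-4.10 ± 0.400, adjusted p = 4.76e-11). Hbb-bt fell by 18.5-fold (-4.21 ± 0.393, adjusted p = 1.62e-11). The globins together took a median of 1.82% of the reads in Mgmt-/- saline livers at Day 1 and 0.158% at Month 10. In WT saline livers these shares were 1.16% (0.456% to 2.05%) and 0.141% (0.112% to 0.730%).

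In WT mice the globins fell less steeply in the fit. Hba-a1 had a median of 3173 (1661 to 9115) at Day 1, 1052 (516 to 2439) at Week 10 and 388 (125 to 1927) at Month 10, and fell 3.54-fold by Month 10 (log2 change -1.82 ± 0.578, adjusted p = 0.00808). Hbb-bs fell 5.36-fold (-2.42 ± 0.560, adjusted p = 0.000401) from a median of 12680 to 1208. Library batch bears on these WT values, because 1 batch of 4 Day 1 and 3 Month 10 saline mice is the only link between Day 1 and the later times. Against Day 2, whose mice shared their batches with older mice, the Month 10 fall was 5.29-fold for Hba-a1 (-2.40 ± 0.390, adjusted p = 8.17e-07) and 6.6-fold for Hbb-bs (-2.72 ± 0.378, adjusted p = 3.37e-08), and again 7 of 8 members were lower (5 of 6 without Ngp and Camp), beside 25.9% of all genes.

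Ngp and Camp went from clearly present to nearly absent, and, having passed the filter only through the pups, had to differ. Ngp was between 17.9 and 487 in Mgmt-/- saline livers at Day 1 (median 110), between 53.7 and 224 at Day 5 (median 77.6), between 0 and 11.3 at Week 10 (median 0.433) and between 0 and 17.4 at Month 10 (median 1.00). The Day 1 and Month 10 groups did not overlap, and the fall was 57.8-fold (log2 change -5.85 ± 0.615, adjusted p = 2.33e-10). This fitted fall and that of Camp in Mgmt-/- mice rest on the Day 1 livers in the batch of the adults. Camp fell 85.3-fold (-6.42 ± 0.674, adjusted p = 2.42e-10), from a median of 62.3 to 0.434, although 1 Month 10 liver held 40.5. In WT mice Ngp fell 25-fold (-4.64 ± 0.629, adjusted p = 1.92e-08), from a median of 48.8 (11.1 to 107) to 0.526 (0 to 2.92), and Camp fell 33.7-fold (-5.08 ± 0.615, adjusted p = 1.14e-09).

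S100a8 and S100a9 fell too but kept a measurable adult level. S100a8 had a Mgmt-/- median of 154 (26.1 to 1418) at Day 1, 43.8 (16.7 to 280) at Week 10 and 22.2 (4.45 to 148) at Month 10, and fell 42.3-fold in the fit (-5.40 ± 0.628, adjusted p = 4.77e-09), more than the medians do, since the batch that holds the adults had the highest Day 1 values. In that batch alone S100a8 was between 725 and 1418 in 4 saline livers at Day 1, against 26.1 to 576 in the 8 livers of the other batch. The within-batch change was the same, -5.40 ± 0.726 (adjusted p = 3.96e-06). In WT mice S100a8 fell 35.9-fold (-5.17 ± 0.546, adjusted p = 1.78e-10) and S100a9 fell 32.0-fold (-5.00 ± 0.653, adjusted p = 2.55e-08).

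The timing could be read between neighbouring ages. Between Day 1 and Day 2 no member was called in either genotype, and between Day 1 and Day 5 none in Mgmt-/- mice, where 0.0101% (Day 2) and 3.02% (Day 5) of genes were called lower and 0.0303% were higher at Day 2. In WT mice 0.354% of genes were lower and 0.354% higher at Day 2. At an unadjusted p under 0.05 there were 0 members in Mgmt-/- mice at either age, beside 8.45% and 20.7% of genes, and 2 in WT mice at Day 2, beside 14.1%. In WT mice S100a8 was 6.83-fold lower at Day 5 (-2.77 ± 0.665, adjusted p = 0.0387) and S100a9 10.3-fold lower (-3.36 ± 0.796, adjusted p = 0.0370), beside 0.188% of genes, and both values rest on the linking batch. S100a8 lost that call in edgeR (-2.92, adjusted p = 0.0952), and S100a9 with a pseudocount of 0.5 (adjusted p = 0.0727). With no covariates S100a9 was at -1.28 (adjusted p = 0.0658), while Ngp (-1.50) and Camp (-1.68) were called (adjusted p = 0.00274 and 0.00263). From Day 5 to Week 10, 7 of 8 members fell in each genotype, or 5 of 6 without Ngp and Camp, which the pups alone brought past the filter (7.92% of genes lower and 3.92% higher in WT, 2.77% lower in Mgmt-/-). The S100a8 and S100a9 calls of that interval were lost within batches 200710Eng and 200724Eng in WT mice (adjusted p = 0.0693 and 0.0567), with no covariates in both genotypes (adjusted p between 0.0577 and 0.162) and with the kidney libraries kept in Mgmt-/- mice (adjusted p = 0.0863 and 0.057), and the Mgmt-/- livers of Day 5 and Week 10 were in different batches. Ngp fell 9.90-fold over that interval in WT mice (-3.31 ± 0.425, adjusted p = 1.68e-08) and 62.6-fold in Mgmt-/- mice (-5.97 ± 0.869, adjusted p = 7.26e-06). Week 10 against Day 1 gave 7 of 8 members in Mgmt-/- (9.44% of genes lower and 7.35% higher) and the 4 neutrophil members in WT (5.47% lower and 4.01% higher), or 5 and 2 without Ngp and Camp. In WT mice Ngp lost that call in edgeR (-5.25, adjusted p = 0.175), and with no covariates Hba-a1, Hbb-bs and Hbb-bt were called as well, which made 7. In order of level the pup ages came first for every tested member, leaving aside Alas2, which is described below. Among Day 1, Day 2 and Day 5 no difference from Day 1 was called except the WT falls just given. Week 10 and Month 10 were not set against each other.

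**Figure D1:**
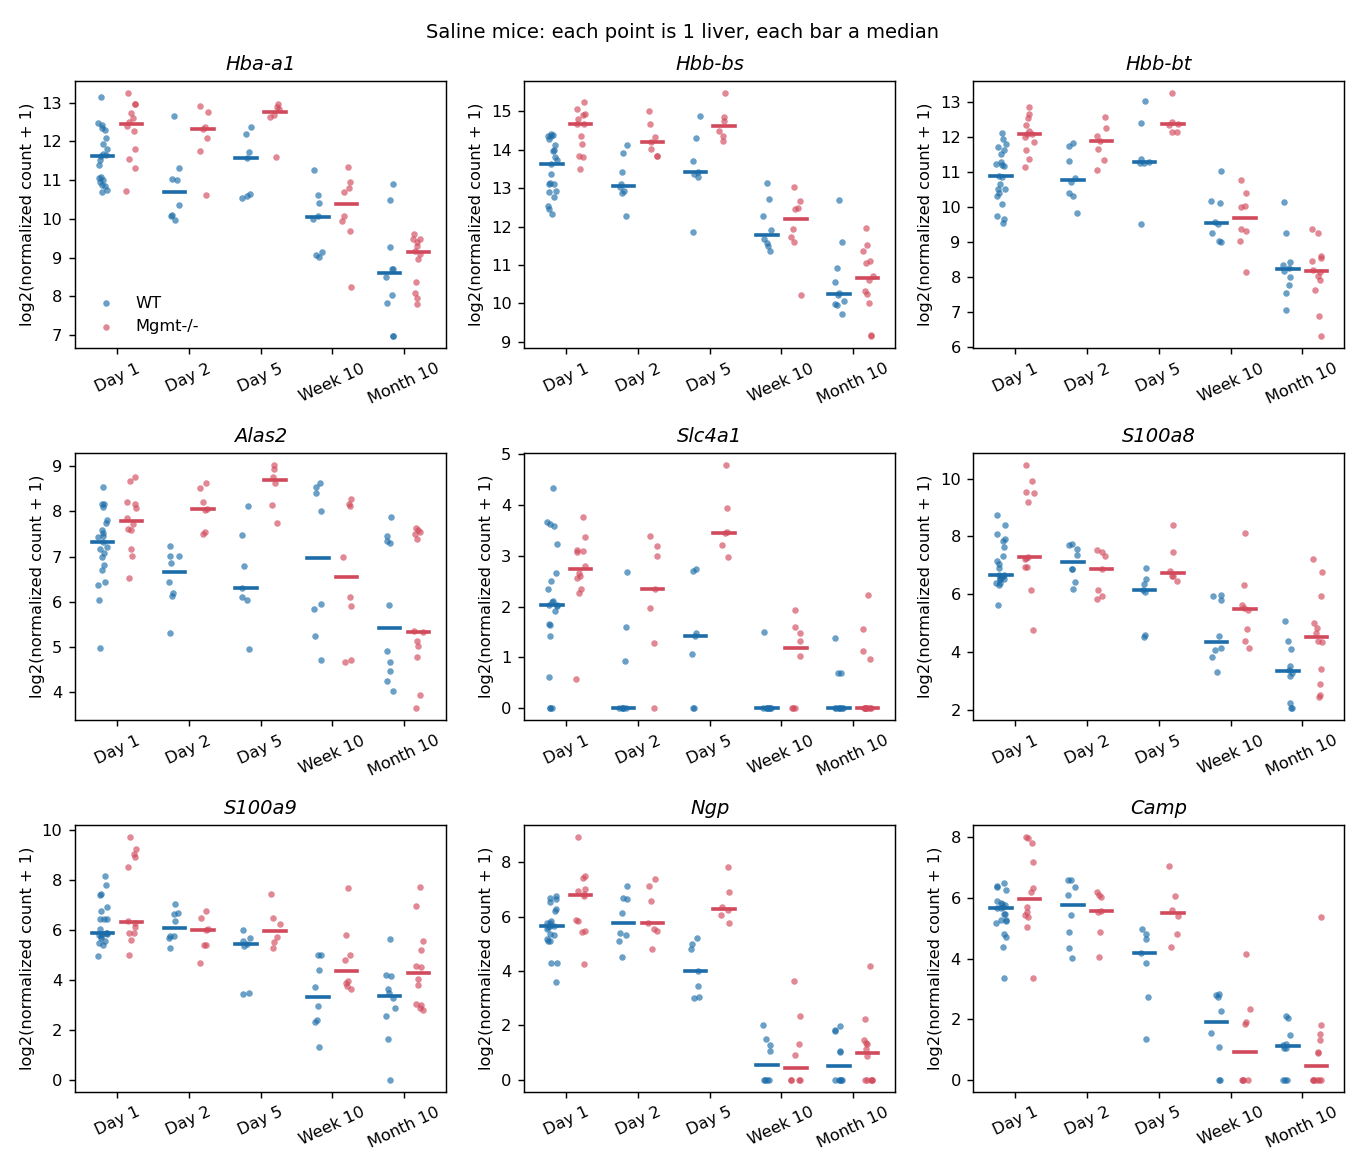
Normalized counts of 9 members in saline livers on a log2(count + 1) axis, by time after the second dose, with 1 point per mouse, WT in blue, Mgmt-/- in red and a bar at each median (the genotypes are not on 1 scale). Adult medians of Ngp and Camp are at most 2.89, those of the globins at least 287, and adult Alas2 points split into a high and a low set.

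Alas2 changed less than the globins by Month 10 in the fits. Its Mgmt-/- saline median was 221 (92.1 to 434) at Day 1, 414 (215 to 521) at Day 5, 96.9 (24.5 to 310) at Week 10 and 39.5 (11.6 to 198) at Month 10, with a called fall only at Month 10 (2.46-fold, -1.30 ± 0.509, adjusted p = 0.0302), which was lost after scaling every library to 1 total (-1.07, adjusted p = 0.0552). With no covariates Alas2 was also called lower at Week 10 than at Day 5 in Mgmt-/- mice (-1.93, limma adjusted p = 0.00776). In WT mice the Month 10 change from Day 1 was 0.05 ± 0.566 (adjusted p = 0.951), and it was -1.40 with adjusted p = 0.00411 when sex and batch were left out of the fit. The adult values of a group fell into a high and a low set, which sex divides, as described below.

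Other genes of these lineages followed in part. Of 12 other late red cell genes, 9 passed the filter in Mgmt-/- saline mice, and by Month 10 they gave 3 lower and 1 higher, while the 8 tested in WT mice gave 1 lower and 3 higher. Carbonic anhydrase 2 (Car2) fell in both genotypes, with log2 changes of -3.38 (adjusted p = 4.43e-13) and -3.32 in WT (adjusted p = 7.05e-13), and Bpgm, which makes the red cell effector of oxygen release, fell by 1.73 on the log2 scale in Mgmt-/- mice (adjusted p = 3.60e-05). Epb41, the gene of the membrane skeleton protein 4.1, rose by 1.07 on the log2 scale in Mgmt-/- mice (adjusted p = 1.76e-05). Zfpm1, a partner of Gata1 that passed the filter only through the adults, rose by 2.10 (adjusted p = 8.81e-06), the 1 of 2 tested transcription factors of the red cell list that was called. Of 11 genes of haem synthesis and iron entry, by contrast, 3 were higher and 3 lower in Mgmt-/- mice, and 4 higher and 1 lower in WT mice. Tfrc, the transferrin receptor, was among the lower (-1.88, adjusted p = 0.00544) and Fech, which puts iron into haem, among the higher (0.64, adjusted p = 0.00416). Embryonic and minor globins were near 0 already in pups, the summed level of the list in saline livers at Day 1 being 4.29 (median) for WT and 7.17 for Mgmt-/- mice, so none of 7 was tested.

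Among the remaining neutrophil lists, Ltf (lactoferrin) and Lcn2 (lipocalin 2) of the later granules fell by 3.15 and 1.96 on the log2 scale by Month 10 in Mgmt-/- mice (adjusted p = 5.74e-06 and 0.00562), and so did Retnlg, a marker of mature neutrophils (-4.01, adjusted p = 9.70e-08). Ltf, Retnlg and, of the genes named next, Elane, Prg2, Cd79b and Meis1 passed the filter only through the pups, so their calls are no separate support. The same holds for Ppbp, 1 of the 2 platelet genes counted as lower below. The fall of Lcn2 is that of the fit with sex and batch, since its saline medians were 41.9 at Day 1 and 48.4 at Month 10. Of the primary granule genes only Elane, neutrophil elastase, could be tested, and it fell by 3.03 (adjusted p = 9.98e-07). Cebpa, a granulocyte transcription factor that hepatocytes also express, rose by 1.39 (adjusted p = 7.06e-07). Of other blood lists, 1 of 1 eosinophil, 2 of 3 platelet, 1 of 1 B cell and 3 of 3 monocyte genes tested were lower in Mgmt-/- mice, among them Prg2, the major basic protein of eosinophils (-4.97, adjusted p = 1.79e-08), Pf4 of platelets (-3.77, adjusted p = 8.88e-11), Cd79b of B cells (-1.89, adjusted p = 0.000245) and Plac8 of the monocyte list (-3.21, adjusted p = 1.36e-10). Of the 3 progenitor genes tested, Meis1 fell by 1.88 (adjusted p = 0.000325) and Hlf, which hepatocytes also express, rose by 1.02 (adjusted p = 0.000773). Of 6 markers of Kupffer cells, the resident macrophages, 5 were lower as well. Hepatocyte markers gave 1 higher and 2 lower of 5, with Alb at 0.69 (adjusted p = 0.00278) and Apoa1 at -1.87 (adjusted p = 4.26e-08).

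Across saline libraries of all ages, the genes whose log2 values were most like the red cell mean among 9021 genes were Hbb-b1 (r = 0.908 in 54 WT and 0.968 in 45 Mgmt-/- libraries), Bpgm (0.866 and 0.913), Apoa1, Grhpr and Blmh. Hbb-b1 is an older name of the same beta-globin locus, and its values differed from those of Hbb-bs by a median of 0.0583%, so it adds nothing. For the neutrophil mean they included Itm2a (0.913 and 0.848), Slc25a4, Cd209f and S100g. All these points share the age of the mice, so the likeness is a description of genes that fade with age. Within 1 age, over the 21 WT saline mice of Day 1, 5 pairs were examined with two-sided permutation tests. Hba-a1 and Alas2 varied together (r = 0.749, p = 0.00011, adjusted 0.000275; rho = 0.823, p = 5.00e-05, adjusted 0.00025; r = 0.711 without the 2 mice farthest from the median), with r of 0.942 and 0.946 within the 2 larger batches. S100a8 and S100a9 did so too (r = 0.907, permutation p = 1.00e-05, adjusted 5.00e-05, the smallest p that the permutations can give; rho = 0.749, p = 0.00016, adjusted 0.000267; r = 0.836 without the 2 farthest mice; 0.508 and 0.865 within batches). Slc4a1 and Alas2 gave r = 0.534 (permutation p = 0.0124, adjusted 0.0155) and rho = 0.740 (p = 0.00016, adjusted 0.000267), with 0.515 without the 2 farthest mice and 0.799 and 0.505 within batches. Ngp and Camp gave r = 0.609 (permutation p = 0.00396, adjusted 0.0066) and rho = 0.529 (p = 0.0143, adjusted 0.0178), which dropped to r = 0.375 without the 2 farthest mice and was 0.483 and 0.850 within batches. Across the lineages, Alas2 and Ngp gave r = 0.339 (permutation p = 0.132, adjusted 0.132) and rho = 0.239 (p = 0.297, adjusted 0.297), with 0.285 without the 2 farthest mice and 0.251 and 0.630 within batches.

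Members of both groups were lower after NDMA in Mgmt-/- pups, Ngp and Camp by the largest factors, while other genes of the neutrophil lists moved otherwise, as given below. At Day 5 the fit called 8 of 9 members lower, at Day 1 it called 7 of 8 and at Day 2 it called 5 of 8, where 6.71%, 8.64% and 7.50% of all genes tested were called lower. No member was called higher in pups, where 9.06% of genes were at Day 1. At Day 5 Slc4a1 and Camp passed the filter on low values only through their saline livers, so their calls there are no separate support, and 6 of the other 7 were called. The median log2 change of the members was -1.11, -0.92 and, without those 2 genes, -0.99 at Days 1, 2 and 5, and over all genes it was 0.02, 0.03 and 0.03. Scaling every library to the same total instead moved the median of all genes to 0.20, 0.20 and 0.17 at these times and changed the genes called higher and lower from 911 and 869 to 1635 and 512 at Day 1, from 1170 and 710 to 1681 and 413 at Day 2, and from 1037 and 624 to 1451 and 412 at Day 5, while every member kept its sign and Hbb-bs lost its Day 1 call (-0.49, adjusted p = 0.0483), which left 6 of 8.

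The widest gap was that of Ngp and Camp at Day 5. Ngp was between 1.39 and 7.83 in 8 NDMA livers (median 5.53) and between 53.7 and 224 in 6 saline livers (median 77.6). Camp was between 0 and 4.39 under NDMA (median 0.781) and between 20.1 and 131 under saline (median 44.2). For both genes every NDMA liver lay below every saline liver, as for 3.23% of all genes tested. The differences were 15.6-fold for Ngp (log2 change -3.96 ± 0.294, adjusted p = 4.53e-10) and 24.2-fold for Camp (-4.60 ± 0.420, adjusted p = 1.15e-08). S100a9 was 10.8 to 20.9 against 37.2 to 172 and S100a8 20.0 to 56.8 against 85.8 to 339. These groups did not overlap either, with falls of 4.53-fold (-2.18 ± 0.265, adjusted p = 1.02e-06) and 3.63-fold (-1.86 ± 0.283, adjusted p = 9.65e-05). Slc4a1 was 0 to 4.33 (median 2.67) under NDMA and 6.81 to 26.6 (median 9.96) under saline, again with no overlap. Its fitted change was -2.12 ± 0.452 (adjusted p = 0.00102).

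Hba-a1, Hbb-bt and Alas2 fell by smaller factors at Day 5 than the neutrophil members, and their groups overlapped. Hba-a1 was 1793 to 4999 (median 3073) in NDMA livers and 3108 to 8039 (median 6945) in saline livers, a 1.99-fold fall (-0.99 ± 0.243, adjusted p = 0.00854). Hbb-bt fell 1.75-fold (-0.81 ± 0.207, adjusted p = 0.00928) and Alas2 1.70-fold (-0.76 ± 0.238, adjusted p = 0.0296). Hbb-bs was not called (-0.51 ± 0.223, adjusted p = 0.121), though all 8 NDMA livers were below the saline median. When the 2 libraries with kidney transcripts were kept among the saline mice, 3 of the 8 members called at Day 5 were still called, Hba-a1, Slc4a1 and Camp, and Ngp was at -2.60 (adjusted p = 0.0945). In females alone the red cell calls were lost, Hba-a1 at -0.531, Hbb-bt at -0.424, Alas2 at -0.489 and Slc4a1 at -1.934. Their adjusted p were 0.436, 0.0987, 0.347 and 0.0548.

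The same directions were present at Day 1 and Day 2. Ngp at Day 1 was 5.37 to 116 in 12 NDMA livers (median 17.0) and 17.9 to 487 in 12 saline livers (median 110), and 11 of the 12 NDMA values were below the saline median. It fell 4.28-fold (-2.10 ± 0.507, adjusted p = 0.00377), and Camp 3.58-fold (-1.84 ± 0.548, adjusted p = 0.0165). Alas2 fell 2.09-fold at Day 1 (-1.06 ± 0.207, adjusted p = 0.000237), from a saline median of 221 to 93.6, Hba-a1 fell 1.95-fold (-0.96 ± 0.237, adjusted p = 0.0033) and S100a9 2.55-fold (-1.35 ± 0.419, adjusted p = 0.0210). The S100a9 call was lost with no covariates, in batch 191212Eng, in males and in females (adjusted p = 0.13, 0.306, 0.159 and 0.114), and that of Hbb-bs in each batch and in females (0.0719 and 0.0845, and 0.589). That of Camp was lost in batch 191212Eng, in males and in females (0.253, 0.246 and 0.0854), and that of Ngp in that batch and in males (0.0662 and 0.179). Hba-a1 lost its call in the same batch and in females (0.0507 and 0.261), and Hbb-bt in females (0.189). S100a8 missed the threshold (-1.15 ± 0.429, adjusted p = 0.0549) but was called by edgeR, by DESeq2 and with a mean of at least 20 (adjusted p = 0.0334, 0.00804 and 0.0418). At Day 2 Ngp fell 4.18-fold (-2.06 ± 0.357, adjusted p = 0.0003), Camp 5.94-fold (-2.57 ± 0.484, adjusted p = 0.000793), S100a9 2.51-fold (-1.33 ± 0.291, adjusted p = 0.00166), Hbb-bt 1.80-fold (-0.85 ± 0.174, adjusted p = 0.00112) and Alas2 1.80-fold (-0.84 ± 0.155, adjusted p = 0.000169). Hbb-bs passed the p threshold there but not that of the fold (-0.48 ± 0.146, adjusted p = 0.0164), and Hba-a1 (-0.76 ± 0.276) and S100a8 (-0.99 ± 0.379) gave adjusted p of 0.0585 and 0.0724. With a mean of at least 20 both were called (adjusted p = 0.0357 and 0.0474), as they were by DESeq2 (0.00148 and 0.0484), and edgeR called Hba-a1 (0.0328). Males alone lost the Day 2 call of S100a9 (-0.853, adjusted p = 0.182) and gained Hba-a1 and Hbb-bs (0.000124 and 0.00579). Females alone lost those of Hbb-bt and Alas2 (-0.519 and -0.565, adjusted p = 0.0952 and 0.0644) and gained S100a8 (0.00185).

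**Figure D2:**
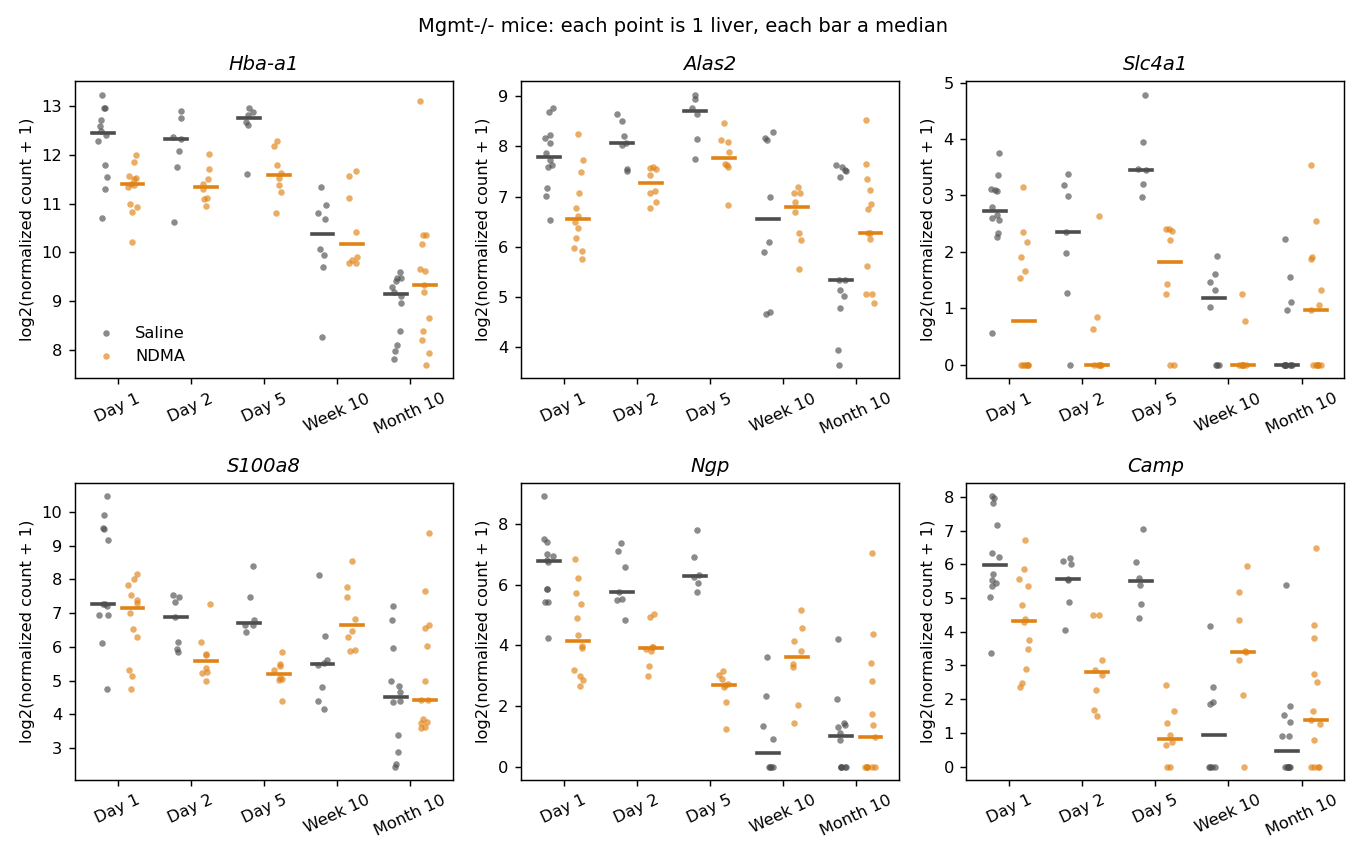
Normalized counts of 6 members in Mgmt-/- livers on a log2(count + 1) axis, saline in grey and NDMA in orange, with 1 point per mouse and a bar at each median. At Day 5 the NDMA points of Slc4a1, S100a8, Ngp and Camp lie below all saline points, and at Week 10 the Ngp and Camp medians are higher under NDMA.

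The Day 1 comparisons were spread over library batches. In Mgmt-/- mice, batch 191212Eng (8 against 8) alone gave 2 of 8 members lower (8.03% of genes), Alas2 (-0.92 ± 0.237) and Hbb-bt (-0.62 ± 0.214), with Ngp at -1.53 ± 0.557 (adjusted p = 0.0662) and Camp at -1.11 (adjusted p = 0.253). Batch 200803Eng (4 against 4) gave larger changes, -3.22 ± 0.669 for Ngp (adjusted p = 0.0268), -3.30 ± 0.668 for Camp (adjusted p = 0.0281) and -2.25 ± 0.259 for S100a8 (adjusted p = 1.6e-05), where 2.86% of genes were called lower. All 8 tested members had the same sign in both batches.

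WT mice gave no call for any member at any time in the main limma fits. The shares of all genes called lower in WT mice were 4.19%, 2.91%, 1.39%, 0.0% and 0.0% from Day 1 to Month 10, and those called higher 5.01%, 3.33%, 2.22%, 0.0249% and 0.0%. At an unadjusted p under 0.05, 2 red cell members passed at Day 1, 1 red cell and 4 neutrophil members at Day 2, 1 red cell member at Day 5, 3 at Week 10 and 1 at Month 10, where 32.3%, 21.1%, 17.9%, 4.35% and 8.18% of all genes passed. The edgeR and DESeq2 tests on recovered reads, which lack 3 of the 8 saline mice of Day 2, each called 2 members at Day 2 (3.26% of genes lower in edgeR and 3.82% in DESeq2), 1 at Day 5 (4.18% and 4.50%) and none at the other times. At Day 1 Alas2 was 31.1 to 247 (median 122) in 26 NDMA livers and 30.4 to 372 (median 160) in 21 saline livers, a change of -0.40 ± 0.150 with adjusted p = 0.0491, under the fold required. Ngp was 6.64 to 398 (median 33.0) against 11.1 to 107 (median 48.8), a change of -0.46 ± 0.350 (adjusted p = 0.382).

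Within single library batches the WT values at Day 1 were as follows. Batch 191212Eng (8 against 8) alone called all 8 tested members lower, beside 5.13% of genes, with Camp at -1.5 ± 0.235 (adjusted p = 4.8e-05), Ngp at -1.44 ± 0.246 (adjusted p = 0.000208), S100a9 at -1.19 ± 0.196 (adjusted p = 9.41e-05) and Hbb-bs at -0.82 ± 0.175 (adjusted p = 0.00185). In that batch Camp was 6.55 to 24.3 in NDMA livers and 19.9 to 58.1 in saline livers. Batch 210901Eng (12 against 9) gave no member call beside 5.36% of genes, with Camp at 0.58 ± 0.501 and Ngp at 0.57 ± 0.592, and its NDMA livers ranged from 12.7 to 314 for Camp. Batch 200803Eng (6 against 4) gave no call for any gene, with Camp at -1.21 ± 0.462 and Ngp at -0.90 ± 0.693. Globin changes had the sign of the pooled value in 2 of the 3 batches, Hbb-bs being 0.09 ± 0.375 in 200803Eng and -0.36 ± 0.246 in 210901Eng. Whether the response differed between batches was not tested.

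**Figure D3:**
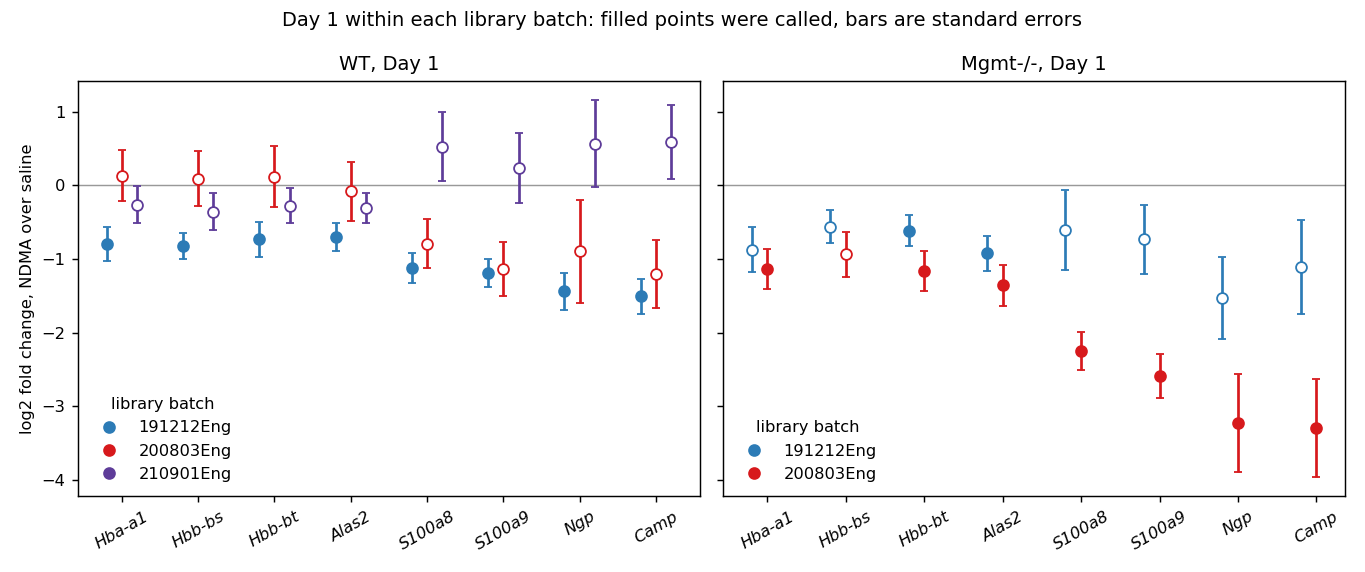
Log2 fold change of NDMA over saline at Day 1 (y axis) for 8 members, fitted within each library batch, with standard error bars and filled points for called members. In WT mice 191212Eng calls all 8 members and 210901Eng none, its neutrophil members being above 0, and in Mgmt-/- mice both batches lie below 0.

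Later WT ages are confounded in another way. At Day 2, Day 5 and Week 10 the males were in 1 batch and the females in another, and an effect of sex and one of batch cannot be told apart. At Day 2 Ngp was 7.28 to 116 (median 25) in 8 NDMA livers and 21.7 to 137 (median 54.5) in 8 saline livers, a change of -1.22 ± 0.483 (adjusted p = 0.149), and Alas2 changed by -0.67 ± 0.233 (adjusted p = 0.0885) with all 8 NDMA livers under the saline median. The highest NDMA value of Ngp came from the library of 150038 reads. Without saline library D215004 3 members were called. Without that NDMA library, named D215006, 5 members were called lower (4.79% of genes), Ngp at -1.53 (adjusted p = 0.0247) and S100a8 at -0.75 (adjusted p = 0.0115) among them. At Day 5 the granule genes of WT mice did not differ beyond their spread. Ngp was 10.2 to 28.8 (median 14.5) in NDMA livers and 7.03 to 36.1 (median 15.2) in saline livers, with a change of -0.03 ± 0.353 (adjusted p = 0.974), and Camp changed by 0.20 ± 0.465 (adjusted p = 0.859). Hba-a1 (-0.85 ± 0.450) and Alas2 (-0.77 ± 0.325) had negative changes with adjusted p of 0.345 and 0.206, and 1 member was called without saline library D215012. At Week 10 and Month 10 Ngp and Camp were too low in WT mice to be tested, and the globins had negative changes, Hba-a1 -1.10 ± 0.419 at Week 10 (adjusted p = 0.910) and -0.70 ± 0.321 at Month 10 (adjusted p = 0.58).

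**Figure D4:**
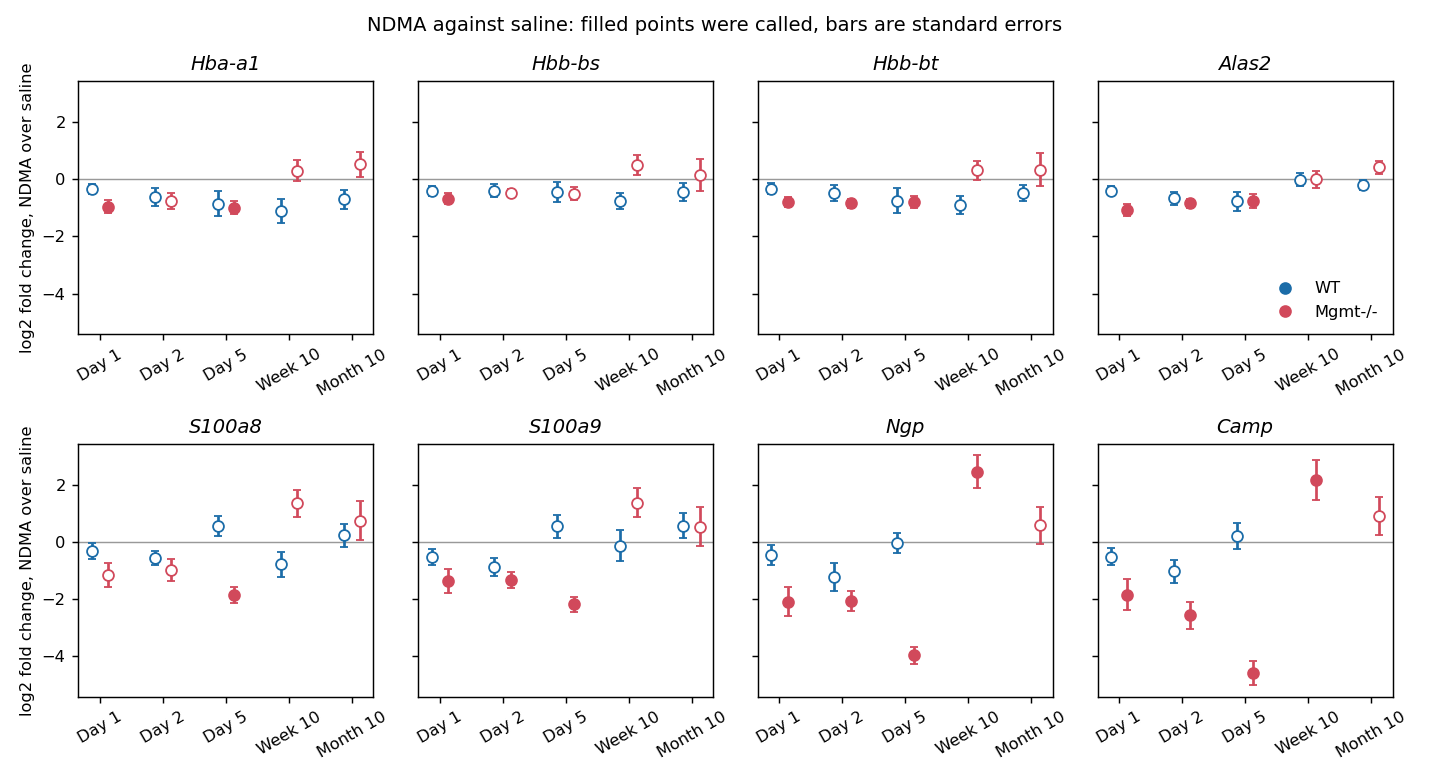
Log2 fold change of NDMA over saline (y axis) for 8 members by time, WT in blue and Mgmt-/- in red, with standard error bars and filled points for called members. Filled points occur in Mgmt-/- mice only, falling to -4.60 for Camp at Day 5 and rising to 2.46 for Ngp at Week 10.

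Whether the response differed between genotypes was tested on recovered reads with the genotype by treatment term of edgeR, each genotype having its own controls. Libraries whose reads were not recovered could not enter, which left 12 of 15 saline mice at Day 2 and 37 of 38 NDMA mice at Day 1. At Day 5 all 4 neutrophil members differed, with the lower log2 change in Mgmt-/- mice, beside 0.943% of 8378 genes called in that direction. S100a8 and S100a9 had changes of 0.56 and 0.55 in the WT limma fit at Day 5, neither of them called. Camp had passed the filter on low values in Mgmt-/- mice only through its saline livers, so its call is no separate support. The log2 differences of the response were -5.36 for Camp (adjusted p = 0.000147), -4.04 for Ngp (adjusted p = 4.30e-06), -2.92 for S100a9 (adjusted p = 0.00203) and -2.46 for S100a8 (adjusted p = 0.0071). For the red cell members the same test gave values near 0, from -0.30 for Hba-a1 (adjusted p = 0.821) to 0.30 for Alas2 (adjusted p = 0.779). So the falls of Hba-a1, Hbb-bt and Alas2 called at Day 5 in Mgmt-/- mice were not shown to differ between genotypes, and edgeR also called Alas2 lower in WT mice at Day 5 (-1.09, adjusted p = 0.0227). At Day 1 and Day 2 no member was called, where 0.0111% and 1.81% of genes were called lower, and 6 and 0 of the 8 members had an unadjusted p under 0.05, beside 10.3% and 18.2% of all genes. Ngp differed by -2.15 at Day 1 (adjusted p = 0.154) and -0.95 at Day 2 (adjusted p = 0.543). WT and Mgmt-/- mice of Day 2 and Day 5 were in different library batches, and the Day 5 differences cannot be told apart from a difference of batch.

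At Week 10 the direction of the granule genes was the opposite in Mgmt-/- mice. Ngp was between 1.71 and 35.0 in 8 NDMA livers (median 11.3) and between 0 and 11.3 in 8 saline livers (median 0.433), and Camp between 0 and 60.7 (median 9.62) and between 0 and 17.0 (median 1.30). Ranges overlapped, with 4 NDMA livers, all male, above every saline liver for Ngp and 3 for Camp. Both genes passed the filter on low values only through the NDMA livers, so these calls are no separate support. The rises were 5.51-fold (log2 change 2.46 ± 0.571, adjusted p = 0.00451) and 4.47-fold (2.16 ± 0.694, adjusted p = 0.0436), and 7.27% of 9681 genes were called higher. S100a8 (1.35 ± 0.475, adjusted p = 0.0773) and S100a9 (1.37 ± 0.508, adjusted p = 0.0965) had the same sign, and all 8 NDMA livers were above the saline median for S100a8, S100a9 and Ngp. Globins and Alas2 changed by at most 0.50. Of the 2 calls, that of Camp was lost by DESeq2, with no covariates, with no filter and with a pseudocount of 0.5 (adjusted p = 0.124, 0.0543, 0.0554 and 0.0634), and neither gene passed the filter in females alone. The count also moved with single libraries: it was 4 without saline library D209004, 3 without saline library D209026, and 1 without any of saline libraries D209001, D209002 and D209003 or of NDMA libraries D209005, D209006, D209007, D209008, D209029, D209031 and D209032. Ngp and Camp did not pass a filter at a mean of 20. In WT mice only S100a8 and S100a9 of the neutrophil members could be tested at Week 10, and neither response differed between genotypes in edgeR (1.89, adjusted p = 0.167, and 1.33, adjusted p = 0.466), where 3.09% of genes were called higher and 2.62% lower in this test.

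At Month 10 no member was called in Mgmt-/- mice, beside 4.75% of genes higher and 2.99% lower, and none had an unadjusted p under 0.05, beside 24.1% of all genes. NDMA livers varied widely. One of the 13, from a male and named D209016, stood highest in all members, with Hbb-bs at 35470 against a group median of 1277, S100a8 at 669 against 20.6, Ngp at 133 against 0.951 and Camp at 88.9 against 1.61. Its globins took 2.19% of reads, as in pup livers. Without it the group still gave no call, with Hbb-bs at -0.21 ± 0.420 (adjusted p = 0.818), and Ngp and Camp were then too low to be tested. The test between genotypes called no member at Month 10 (0.803% of genes higher, 0.521% lower), with Hba-a1 at 1.91 (adjusted p = 0.124) and at 1.05 without that liver. Other genes of the blood lists were called higher in Mgmt-/- mice at Month 10. Prtn3, proteinase 3 of the primary granules, rose by 2.67 (adjusted p = 0.0202) and by 2.37 without D209016 (adjusted p = 0.0309). In WT mice, where Prtn3 passed the filter through the NDMA livers alone, it was at 1.04 (adjusted p = 0.645). No genotype difference was called for it in edgeR (-0.03, adjusted p = 0.979). Pf4 and Ppbp of platelets rose by 1.17 and 1.41 (adjusted p = 0.0392 and 0.0206), Ppbp having passed the filter through the NDMA livers alone, but without that liver Pf4 was at 0.94 (adjusted p = 0.0591) and Ppbp was too low to be tested. The genotype difference of Pf4 at Month 10 was likewise 2.35 (adjusted p = 0.0376) with that liver and 1.67 (adjusted p = 0.0642) without it.

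The other genes of these lineages were read beside the members in Mgmt-/- pups. Of the other late red cell genes, 3 of 7, 5 of 8 and 3 of 8 were lower at Days 1, 2 and 5. Car2 fell by 0.78, 0.59 and 1.13 on the log2 scale (adjusted p = 0.000195, 0.000365 and 2.65e-07) and Fam210b by 0.64, 1.08 and 0.75 (adjusted p = 0.000858, 2.79e-05 and 0.000908). Of 11 haem and iron genes 1, 2 and 1 were lower, Alad at every one of these times (-0.66, -0.76 and -0.65). The red cell transcription factors were too low for a test, apart from 2 genes at Day 1 and 1 at Day 5, and none of those was called.

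Neutrophil lists did not move as 1 block in Mgmt-/- mice. Lcn2, which hepatocytes also release in the acute phase, rose at all 5 times, with log2 changes of 3.65, 3.88, 4.51, 4.74 and 2.68 (adjusted p = 1.2e-06, 7.38e-07, 2.32e-07, 1.81e-06 and 0.00788), and in WT mice by 2.34, 1.64 and 1.56 from Day 1 to Day 5. At Day 5 it was 384 to 787 in NDMA and 12.8 to 82.6 in saline livers, the opposite of Ngp in the same livers. Ltf, like Ngp and Camp a secondary granule gene, rose at Day 2 (1.97, adjusted p = 0.000348; 37.2 to 66.3 against 1.48 to 26.7) and fell at Day 5 (-2.15, adjusted p = 7.26e-05; 0.910 to 7.62 against 10.4 to 37.5), where it passed the filter only through its saline livers, so that this call is no separate support. Cybb, a subunit of the phagocyte oxidase that macrophages also express, rose at Day 2 and Day 5 (1.82 and 1.67, adjusted p = 2.15e-06 and 1.91e-07). Retnlg fell at Day 1 (-0.95, adjusted p = 0.0398) and was at -0.63 at Day 5 (adjusted p = 0.081), where its response differed between genotypes in edgeR (-2.02, adjusted p = 0.00455). Of the primary granule genes only Elane could be tested in pups, at Day 1, and it was not called (-0.49, adjusted p = 0.272). Cebpa gave no call in pups and fell at Week 10 (-0.59, adjusted p = 0.0495), and Spi1, the gene of PU.1, rose at Day 2 (1.06, adjusted p = 0.0213).

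Markers of other cells moved in these livers too, and their part in the changes of the members was not tested. Eosinophil Prg2, the only gene of its list of 6 that passed the filter, and at each of these times only through its saline livers, fell by 3.40, 3.67 and 4.86 on the log2 scale at Days 1, 2 and 5 (adjusted p = 0.00113, 1.00e-07 and 9.59e-10) and was 0 to 2.16 in NDMA and 15.5 to 108 in saline livers at Day 5. Monocyte markers rose, 3, 4 and 4 of the 4 tested, with Plac8 at 1.33, 2.24 and 2.21 (adjusted p = 9.73e-06, 4.30e-07 and 5.12e-10). Among them Ccr2 passed the filter only through its NDMA livers at Day 2 and Day 5 (means 37.2 against 2.52 and 25.3 against 4.37). Its calls at these 2 times are no separate support. Of 6 Kupffer cell markers 1, 4 and 3 were higher and 2, 0 and 0 lower, with Clec4f at -1.23 on Day 1 (adjusted p = 0.000186). Pf4 and Ppbp of platelets fell at Day 5 (-0.66 and -1.41, adjusted p = 0.0200 and 0.00998), Ppbp having passed the filter through its saline livers alone, while Pf4 rose in WT mice at Day 5 (1.07, adjusted p = 0.00669) and in Mgmt-/- mice at Week 10 (1.5, adjusted p = 0.00485), with the genotype difference called at Day 5 (-1.81, adjusted p = 0.000119). Of 2 B cell genes tested, Cd79b fell at Day 1 (-0.79, adjusted p = 0.0475). Of the progenitor genes Hlf fell at Day 1 and Day 2 (-0.80 and -0.65), while Cd34, which vessels also express and which at Day 1 passed the filter through its NDMA livers alone, rose by 1.72, 2.09 and 1.28 (adjusted p = 5.37e-05, 6.49e-06 and 0.00185). Hepatocyte markers gave 3, 3 and 1 of 5 lower, with Alb at -0.82 on Day 1 (adjusted p = 1.13e-05) and a summed level of 100800 to 244600 (median 196700) in NDMA and 151500 to 403900 (median 302800) in saline livers.

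Adult Alas2 was divided by sex, a comparison chosen after its values were seen. In Mgmt-/- saline mice at Month 10 it was 168 to 198 (median 185) in 5 males and 11.6 to 39.7 (median 31.4) in 7 females, and at Week 10 it was 126 to 310 (median 282) in 4 males and 24.5 to 67.5 (median 42.1) in 4 females. No male was as low as any female in these groups. Of all genes, 37.8% at Month 10 and 8.96% at Week 10 had an unadjusted limma p under 0.05 between the Mgmt-/- sexes. With treatment in the fit, males were higher by 2.24 ± 0.231 on the log2 scale at Month 10 (adjusted p = 8.56e-09, beside 8.91% of genes higher in males) and by 1.67 ± 0.302 at Week 10 (adjusted p = 0.00203, beside 0.671% of genes), although not called there in NDMA mice alone (0.80, adjusted p = 0.242). In WT mice the differences were 2.59 ± 0.305 at Month 10 (adjusted p = 2.40e-06, 0.540% of genes) and 2.97 ± 0.227 at Week 10 (adjusted p = 5.71e-09, 7.65% of genes). At Week 10 sex and batch were the same. At Month 10 only batch 200803Eng held both sexes, and with batch in the fit the WT difference rests on the mice of that batch. In WT saline mice alone, few of which were in that batch, the difference was 2.10 and was not called. WT females at Month 10 were at 15.3 to 59.8 under saline and 10.8 to 27.3 under NDMA, and males at 157 to 235 and 154 to 238. No globin was called higher in adult males, Hba-a1 differing by 0.43 ± 0.438 at Month 10 in Mgmt-/- mice (adjusted p = 0.497), while Hbb-bt was lower in WT males at Week 10 (-0.93 ± 0.316, adjusted p = 0.0455), where sex and batch are the same. In pups Alas2 was not called between the sexes at any time.

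Alas2 was also read by sex in the NDMA livers of Mgmt-/- mice. At Week 10 NDMA males were at 103 to 145 and females at 45.9 to 118, so their ranges overlapped. At Month 10 they were at 106 to 369 and 28.5 to 76.3, with no overlap, at an age where 37.8% of all genes had an unadjusted limma p under 0.05 between the sexes. The test of whether the NDMA response differed between the sexes gave -1.75 ± 0.497 at Week 10 (p = 0.0019 before adjustment in limma, adjusted p = 0.576) and -1.03 ± 0.426 at Month 10 (adjusted p = 0.177), so no difference was called. Alas2 overlaps Apex2 on the opposite strand (chrX:150519519-150589868), and the strand used in counting was not given in the sources used here. Apex2, an endonuclease gene, stayed at or below 24.2 in every liver group and was also higher in Mgmt-/- males at Month 10 (1.04 ± 0.340, adjusted p = 0.0237).

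**Figure D5:**
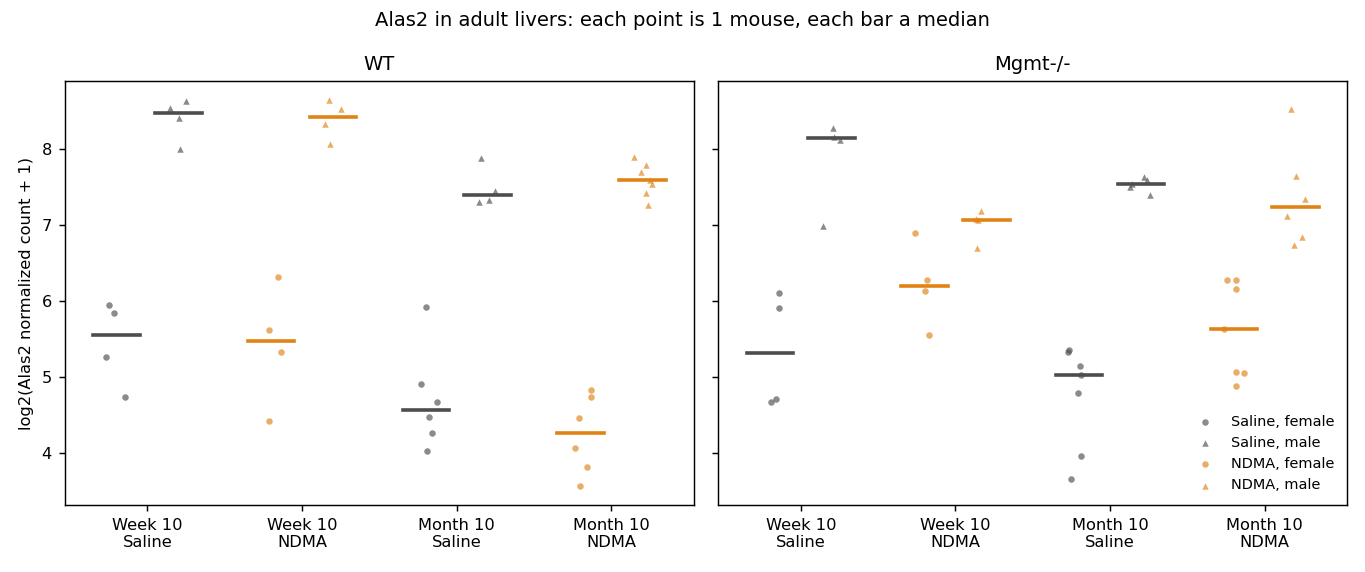
Alas2 normalized counts in adult livers on a log2(count + 1) axis, by age and treatment, females as circles and males as triangles, saline in grey and NDMA in orange, with 1 point per mouse and a bar at each median. Males lie above females in each saline group, and in Mgmt-/- mice at Week 10 the NDMA ranges of 103 to 145 and 45.9 to 118 overlap.

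The 2 saline libraries with kidney transcripts give the members in another tissue of pups of the same age. Their Alb values were 525.9 and 161, against 134300 to 150900 in the 6 other saline livers of Mgmt-/- Day 5, and their Kap values, a gene of the proximal tubule, 6147 and 7562 against at most 1.80. Globins were close to the liver range, with Hbb-bs at 21570 and 25850 against 19310 to 45390 and Hba-a1 at 5657 and 2755 against 3108 to 8039, and Alas2 was 237 and 163 against 215 to 521. Neutrophil members were far lower, with S100a8 at 4.93 and 3.27 against 85.8 to 339, Ngp at 0.352 and 2.18 against 53.7 to 224, and Camp at 0 and 0.545 against 20.1 to 131. Slc4a1, which kidney collecting ducts also express, was 47.5 and 31.0, above the highest liver value of 26.6. These 2 libraries came from 1 female and 1 male and were labelled as liver, so the values are described and not tested.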

How the data were processed

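Livers of 213 mice had values, of 214 labelled samples, and 1 Mgmt-/- saline library of Month 10 was not analysed here. The authors counted reads with 3′ digital gene expression (STAR alignment to GRCm38, ESAT counts) and divided them by DESeq2 size factors, so the deposited values are a signal: normalized counts, 1 table per genotype. Versions, annotation and counting strand were not given in the sources used here. Whole reads were recovered in 209 of 213 columns, the largest distance from a whole number being 7.2e-05. Main fits used limma 3.58.1 (R 4.3.3) on log2(value + 1), with a mean of at least 5 over the mice compared and sex and batch as covariates. Alternatives used edgeR 4.0.16 and DESeq2 1.42.0, and edgeR also tested the genotype by treatment term. The fits were tested on simulated data. Each mouse was 1 replicate, and 2 libraries with kidney transcripts were left out.

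The members and lists were chosen with earlier results of these data known. Named genes were all members, the 3 genes of each list highest in WT saline mice at Day 1, and the 5 genes most like each lineage. Fech, Cd34, the sex comparison of Alas2 and the fits within single sexes, within batches 200803Eng and 210901Eng, without library D209016 and without unrecovered columns were chosen after values were seen. Of the genes that this rule names, 2 are not reported here.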

Additional observations from a re-analysis of the deposited data

Results flagged for a closer look

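In 10 of 117 combinations of member and group, 1 mouse stood far from the others by Dixon's test, which chance does in about 1 of 20. Of these, 3 were WT libraries with under 300000 reads: S100a8 was 263 in 1 NDMA liver at Day 2 (D215006) with the next at 97.4, Hba-a1 was 262 in 1 NDMA liver at Day 5 (D215014) with the next at 1340, and Hba-a1 was 61.6 in 1 NDMA liver at Week 10 (D215022) with the next at 361. Slc4a1 stood apart at very low values in WT mice, at 1.82 in a Week 10 saline liver (D215018) and 0.842 in a Week 10 NDMA liver (D202022) with all others at 0, and at 1.60 in a Month 10 saline liver (D202024) with the next at 0.624. In Mgmt-/- mice Slc4a1 was 5.19 in 1 NDMA liver at Day 2 (D389077) with the next at 0.797. At Day 5, saline liver D389024 was low in Hba-a1 (3110, next 6280), saline liver D389018 was high in Hbb-bt (9760, next 5550), and NDMA liver D389066 was low in Hbb-bs (9230, next 16900).

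The response to NDMA differed between genotypes at Day 5 in the edgeR test, with log2 differences of -5.36 for Camp (adjusted p = 0.000147), -4.04 for Ngp (adjusted p = 4.30e-06), -2.92 for S100a9 (adjusted p = 0.00203) and -2.46 for S100a8 (adjusted p = 0.0071). Library batch differed with genotype there, and the 2 cannot be told apart. Camp had passed the filter in Mgmt-/- mice only through its saline livers, so its value is no separate support.

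Outside the liver comparisons, Slc4a1 was 47.5 and 31.0 in the 2 libraries with kidney transcripts, D389011 and D389017, above the 6 other saline livers of that group.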

How the results depend on the processing

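No paired analysis was possible because the labels number no mice across groups. With no covariates the WT change of Alas2 from Day 1 to Month 10 was -1.40 (adjusted p = 0.00411), the one reversal. Member calls for WT NDMA at Day 1 were 8 in batch 191212Eng alone, 3 in males alone and 1 with no fold threshold. At Day 2 they were 2 by DESeq2, 2 by edgeR, 1 in males alone and 5 without libraries under 300000 reads, and at Day 5 they were 1 by DESeq2 and 1 by edgeR. In Mgmt-/- mice Day 1 gave 2 in batch 191212Eng alone, 2 in females alone and 4 in males alone, and Day 5 gave 4 in females alone and 3 with the kidney libraries kept. Week 10 gave 4 after scaling all libraries to 1 total, 0 in females alone and with a mean of at least 20, and 1 by DESeq2, in males alone, with no covariates, with no filter on low values and with a pseudocount of 0.5. Over time in saline mice, WT Day 5 against Day 1 gave 1 by edgeR and 1 with a pseudocount of 0.5, WT Week 10 against Day 1 gave 7 with no covariates, and Mgmt-/- Day 5 against Day 1 gave 1 with the kidney libraries kept. The sex difference of Alas2 was 2.10 in WT saline mice alone at Month 10, where few mice were in the batch that held both sexes, and was not called. It was 0.80 in Mgmt-/- NDMA mice alone at Week 10 (adjusted p = 0.242). The cause was not tested for any of these.

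Leaving out 1 of 92 libraries at a time gave 0 to 5 calls at WT Day 2 (5 without NDMA library D215006 and 3 without saline library D215004), 0 to 1 at WT Day 5 (1 without saline library D215012), 0 to 0 at WT Week 10, 5 to 7 at Mgmt-/- Day 2, 7 to 8 at Day 5 and 1 to 4 at Week 10, and 0 at Month 10 without D209016, also for the genotype difference. Depth limits Slc4a1 and the adult values of Ngp and Camp, which rest on a few reads.

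Over all genes tested, counts are given as higher and lower, and those that moved by over 1.5 times follow. WT NDMA at Day 1 (452 and 378) gave 0 and 0 in batch 200803Eng, 271 and 218 in females, 230 and 188 at a mean of 20, 994 and 909 with no fold threshold and 308 and 214 with a pseudocount of 5. Day 2 (285 and 249) gave 0 and 0 in females, 449 and 359 in males, 98 and 58 without the columns whose reads were not recovered and 461 and 410 without libraries under 300000 reads. Day 5 (192 and 120) gave 349 and 389 by DESeq2, 267 and 362 by edgeR, 0 and 0 in females, 678 and 455 in males, 104 and 46 with no covariates and 474 and 320 without libraries under 300000 reads. Week 10 (2 and 0) gave 0 to 8 and 0 to 3, and Month 10 (0 and 0) gave 39 and 5 in males and 1 and 0 by DESeq2. Mgmt-/- Day 1 (911 and 869) gave 271 and 294 in batch 200803Eng, 571 and 458 in males and 551 and 615 at a mean of 20. Day 2 (1170 and 710) gave 813 and 436 in females, 745 and 391 in males and 721 and 520 at a mean of 20. Day 5 (1037 and 624) gave 605 and 322 in females and 699 and 306 with the kidney libraries kept, Week 10 (704 and 376) gave 162 and 33 in males, and Month 10 (478 and 301) gave 137 and 140 in females and 242 and 267 at a mean of 20. With no covariates the saline counts against Day 1 went in WT mice from 32 and 32 to 530 and 822 at Day 2, from 22 and 17 to 432 and 455 at Day 5 and from 363 and 495 to 1034 and 2193 at Week 10, and in Mgmt-/- mice from 3 and 1 to 150 and 196, from 218 and 299 to 610 and 971 and from 727 and 933 to 1277 and 1708. WT Day 2 also gave 15 and 14 by edgeR, 78 and 81 at a mean of 20 and 49 and 81 with a pseudocount of 5, WT Day 5 gave 40 and 27 at a mean of 20, and Mgmt-/- Day 2 gave 26 and 5 by edgeR, 8 and 1 in batch 191212Eng and 0 and 0 with the kidney libraries kept. Week 10 against Day 5 went from 355 and 717 to 286 and 396 at a mean of 20 in WT mice, and from 218 and 274 to 2154 and 2011 with no covariates in Mgmt-/- mice. Scaling to 1 total gave 1162 and 177 for NDMA in Mgmt-/- mice at Week 10, 93 and 686 for Mgmt-/- saline Day 5 against Day 1, and for Month 10 against Day 1 it moved 2633 and 2417 to 3310 and 1881 in Mgmt-/- and 2505 and 1914 to 3221 and 1544 in WT saline mice.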
